A study of Mus musculus with 14 samples.

Results

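Endoplasmic reticulum folding and secretion genes were followed here across dendritic cell cultures that had received cathepsin inhibitors and inflammatory stimuli. The 38 listed symbols were matched to the array annotation, and they named 37 genes, because Selenos and Vimp are the newer and older symbol of the same gene (Ero1lb is now Ero1b). All 37 were among the 18193 genes for which a probe set names that gene only, and all 37 were among the 12192 genes bright enough to test. For each gene the probe set with the highest mean over the 14 arrays was used.

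Dendritic cells had been grown from BALB/c mouse bone marrow with granulocyte-macrophage colony-stimulating factor for 8 days. The arrays formed 7 groups of 2, 1 array from each of 2 independent experiments. Cells given 5 µM CLIK148, a cathepsin L inhibitor, and then 25 µg/mL CpG oligonucleotide were set beside cells given solvent (DMSO, 0.01%) and CpG, a ligand of Toll-like receptor 9 labelled pro-Th1. Cells given 5 µM CA074Me, a cathepsin B inhibitor, and then 500 U/mL tumour necrosis factor alpha (TNF, labelled pro-Th2) were set beside cells given solvent and TNF. The remaining groups received CLIK148, CA074Me or solvent for the same 1 h and no stimulus. CLIK148 was never combined with TNF, nor CA074Me with CpG, and how long the stimulus acted before harvest was not stated in the labels.

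Proteins bound for secretion, for the cell surface or for lysosomes enter the endoplasmic reticulum through the Sec61 channel, fold there with the help of chaperones and disulfide-forming enzymes, and leave in vesicles coated with COPII. Misfolded chains are passed back to the cytosol and degraded. When unfolded chains accumulate, the sensors IRE1 (gene Ern1), PERK (Eif2ak3) and ATF6 start the unfolded protein response, which raises chaperone genes through the transcription factors XBP1 and ATF6. Dendritic cells are known for high XBP1 activity and, once activated, for a large output of cytokines and surface molecules. The arrays measure mRNA, and neither XBP1 splicing nor protein was read.

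Values are log2 RMA expression, so a difference of 1 is a doubling. A gene is said to have changed when its limma adjusted p, over all 12192 genes of a comparison, was under 0.05 in a fit with the experiment as a block. Standard errors (SE) come from that fit, in which n = 2 arrays per group. The replicate numbers were treated as pairs because the design text describes 2 independent experiments. Over the 21 pairs of groups, the differences between replicates correlated with r from 0.455 to 0.935.

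The cultures carried dendritic cell markers, with all 10 listed markers above the overall median of 7.52 log2 on every array, and so were all 8 macrophage and all 8 granulocyte markers. The plasma cell and B lymphocyte list, whose cells are rich in endoplasmic reticulum, had a mean of 7.62 to 8.35 log2 over the 14 arrays. Of its 8 markers 2 exceeded 7.52 on every array, Sdc1 at 10.27 to 10.94 log2 and Mzb1 at 7.59 to 8.62. Cd79a and Tnfrsf17 exceeded it on no array, and the remaining markers on some arrays. Array medians lay between 7.48 and 7.54. These are mixed cultures measured in bulk, in which fewer cells of a type and less RNA per cell cannot be told apart.

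Promoter sequence of the members is shown before their values, since the chaperone genes are the textbook carriers of the endoplasmic reticulum stress elements that ATF6 and XBP1 bind. RefSeq windows (GRCm38.p6) of 300 bases, 250 before and 50 after an annotated start, were found for 31 of the 37 members. There were 33 windows, since Derl2 and Sec23b have 2 each. The windows of Sec24d and Edem1 lie inside the annotated span of the gene, downstream of its first base. Searched on both strands were ERSE (CCAAT, 9 bases of any kind, then CCACG), ERSE-II (ATTGG, 1 base of any kind, then CCACG) and the core of the UPRE (TGACGTGG). ERSE and ERSE-II share the letters CCACG and, on opposite strands, CCAAT, and an exact match was required. ERSE was found in the windows of 8 of the 31 members, or 25.8%. It was found in 0.137% of all 27025 genes with a window, and in 0.182% of the 9873 tested genes among them. ERSE-II was found in 2 members (6.45%, against 0.0444% of all genes and 0.0810% of tested genes). The UPRE core was found in 1 member (3.23%, against 0.714% of all genes and 1.03% of tested genes). The matches are printed 5′ to 3′ on the strand of the gene with 5 flanking bases, and capitals mark the fixed letters of the motif. A match is a description of the sequence and not a measured binding site.

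Hspa5, ERSE, chr2:34772020-34772048, plus strand: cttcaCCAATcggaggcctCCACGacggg
Hsp90b1, ERSE, chr10:86705633-86705661, minus strand: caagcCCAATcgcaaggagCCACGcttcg
Hsp90b1, ERSE reversed, chr10:86705528-86705556, minus strand: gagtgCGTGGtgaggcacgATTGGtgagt
Canx, ERSE, chr11:50325795-50325823, minus strand: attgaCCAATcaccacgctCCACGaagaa
Dnajc3, ERSE, chr14:118937822-118937850, plus strand: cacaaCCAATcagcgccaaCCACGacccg
Creld2, ERSE reversed, chr15:88819515-88819543, plus strand: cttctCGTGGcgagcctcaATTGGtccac
Pdia6, ERSE, chr12:17266486-17266514, plus strand: agagaCCAATgaaaggcggCCACGgcgtg
Ero1b, ERSE reversed, chr13:12565677-12565705, plus strand: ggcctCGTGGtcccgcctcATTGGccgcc
Syvn1, ERSE, chr19:6046527-6046555, plus strand: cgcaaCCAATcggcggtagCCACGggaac
Dnajb11, ERSE-II, chr16:22857847-22857867, plus strand: cggcgATTGGcCCACGcctgg
Herpud1, ERSE-II, chr8:94386372-94386392, plus strand: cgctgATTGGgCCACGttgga
Sec24d, UPRE core, chr3:123267465-123267482, plus strand: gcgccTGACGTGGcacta

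CpG changed 9 of the members. Genes for a stress sensor, a phosphatase regulator, 3 luminal chaperones, an adaptor of the degradation machinery, a coat subunit and a protein modifier rose, while the sensor gene Eif2ak3 fell. In the blocked limma fit 8 of 37 members rose and 1 fell, where 6.18% of all tested genes rose, 13.7% fell and 19.8% changed in either direction. The members' median difference was 0.062 log2 against a median of -0.055 over all tested genes, and 24 of 37 members lay above 0 against 39.4% of all genes. Without the block 0 members were called (0 of 37 in limma, where 1.92% of all genes were called), so each call on a member in this comparison rests on pairing the arrays by experiment.

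The sensors moved in different directions. Ern1 encodes IRE1, the kinase and nuclease that splices XBP1 mRNA. It stood at 11.08 and 11.32 log2 with CpG in experiments 1 and 2, against 10.04 and 10.52 in solvent cells. The groups did not overlap, and the difference was 0.92 ± 0.16 log2 (SE; limma adjusted p = 0.0081, and adjusted p = 0.211 without the block), or 1.89-fold. Eif2ak3 encodes PERK, the kinase that phosphorylates eIF2 alpha and slows translation. Its values were 10.05 and 10.97 log2 with CpG, against 10.82 and 11.25 in solvent cells. The CpG array was the lower one in each experiment although the groups overlapped, with a difference of -0.52 ± 0.14 log2 (limma adjusted p = 0.0333, and 0.486 without the block). The call on Eif2ak3 was lost with the mean of its probe sets. Atf6 was at 9.04 and 9.87 log2 with CpG and at 9.81 and 9.79 in solvent cells, so it was lower in experiment 1 and near its solvent value in experiment 2 (difference -0.34 ± 0.19, limma adjusted p = 0.218). The lower value in experiment 1 was seen on this probe set, while the other 2 for Atf6 differed from solvent by 0.030 and 0.15 log2 over both experiments.

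Xbp1, the transcription factor downstream of IRE1, was at 13.31 and 13.70 log2 with CpG, against 13.65 and 13.73 in solvent cells. Its difference of -0.19 ± 0.082 log2 did not pass (limma adjusted p = 0.124), and the groups overlapped. Ppp1r15a encodes GADD34, which directs a phosphatase to eIF2 alpha and restores translation. It stood at 10.66 and 10.78 log2 with CpG, against 9.83 and 10.06 in solvent cells, 0.78 ± 0.12 log2 or 1.72-fold higher (limma adjusted p = 0.00405, and 0.0570 without the block). Ppp1r15a was the member with the smallest adjusted p of this comparison and kept its call without any 1 of the 4 arrays compared.

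**Figure D1:**
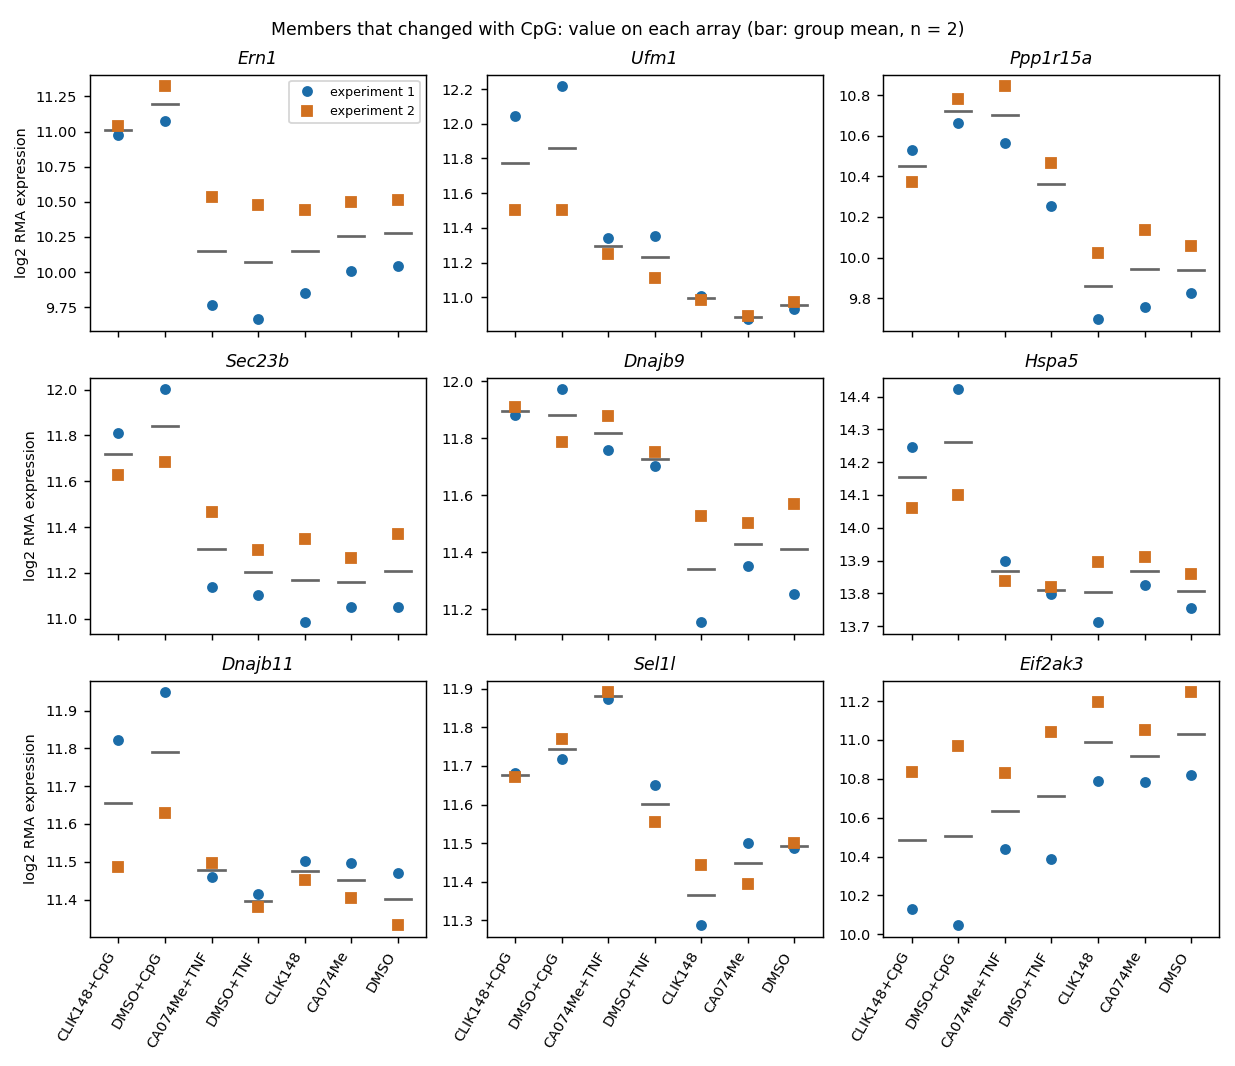
Log2 RMA expression (y axis) of the 9 members that changed with CpG, on each of the 14 arrays, by group (x axis); circles are experiment 1, squares experiment 2 and bars the group means (n = 2). Ern1 reaches 11.08 and 11.32 with CpG and 10.98 and 11.04 with CLIK148 and CpG, while every group without CpG stays between 9.67 and 10.53.

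Of the 10 chaperone and cofactor genes 3 rose, namely BiP and a pair of its J-domain cofactors. Hspa5 encodes BiP, the main Hsp70 chaperone of the endoplasmic reticulum. Its level was 14.42 and 14.10 log2 with CpG, against 13.75 and 13.86 in solvent cells, a difference of 0.45 ± 0.11 log2 or 1.37-fold (limma adjusted p = 0.0277, and 0.0926 without the block). Dnajb9, a BiP cofactor also named ERdj4, was at 11.97 and 11.79 log2 with CpG, against 11.25 and 11.57 in solvent cells (0.47 ± 0.12 log2, limma adjusted p = 0.0282, and 0.134 without the block). Both CpG arrays exceeded both solvent arrays for each of these genes, and the gap was larger in experiment 1. Dnajb11, or ERdj3, was at 11.95 and 11.63 log2 with CpG, against 11.47 and 11.33 in solvent cells (0.39 ± 0.097 log2, limma adjusted p = 0.0268, and 0.165 without the block).

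The other 7 members of the chaperone group had differences from -0.14 log2 for Dnajc3 to 0.29 log2 for Manf, with limma adjusted p of 0.0760 or more. Further Dnajc3 probe sets ran from -0.046 to 0.096 log2. Hsp90b1, which encodes GRP94, was 0.11 ± 0.088 log2 above solvent, and Canx, the membrane lectin chaperone calnexin, 0.062 ± 0.085. Both carry an ERSE in the windows printed above. A second Hsp90b1 probe set gave -0.066 log2. None of the 4 disulfide enzyme genes was called, and Ero1b, an oxidase that recharges protein disulfide isomerases, was the lowest at -0.44 ± 0.14 log2 (limma adjusted p = 0.0583). P4hb, Pdia4 and Pdia6, the isomerase genes, lay between -0.024 and 0.10 log2.

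Among the 8 degradation genes the group median was 0.13 log2 and 1 was called. Sel1l, the adaptor that holds the HRD1 ubiquitin ligase complex together, was at 11.72 and 11.77 log2 with CpG, against 11.49 and 11.50 in solvent cells. That difference of 0.25 ± 0.072 log2 passed (limma adjusted p = 0.0405, and 0.130 without the block), and it was 0.23 and 0.27 in the 2 experiments. Syvn1, which encodes HRD1 itself, stood 0.30 ± 0.10 log2 above solvent (limma adjusted p = 0.0662). Herpud1, another component of that complex, went in opposite directions, with 11.59 and 12.54 log2 with CpG against 11.98 and 11.95 in solvent cells.

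The translocation genes had small differences from solvent. The 7 genes of the Sec61 channel, its Sec62 and Sec63 partners and the signal sequence receptor ranged from -0.091 log2 for Sec62 to 0.15 log2 for Sec61b, with 0 called in limma and 0 of 7 at an unadjusted p under 0.05, beside 37.3% of all genes. On the exit side, Sec23b, a COPII coat subunit, was at 12.002 and 11.682 log2 with CpG, against 11.050 and 11.368 in solvent cells (0.63 ± 0.16 log2 or 1.55-fold, limma adjusted p = 0.0303, and 0.124 without the block). Sec24d, its cargo-binding partner in the coat, was 0.0089 ± 0.11 log2 from solvent. Ufm1, a ubiquitin-like modifier that is attached to ribosomes at the endoplasmic reticulum, stood at 12.22 and 11.50 log2 with CpG, against 10.94 and 10.98 in solvent cells. The difference of 0.90 ± 0.18 log2, or 1.87-fold, was 1.28 log2 in experiment 1 and 0.53 in experiment 2 (limma adjusted p = 0.0120, and 0.0825 without the block).

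**Figure D2:**
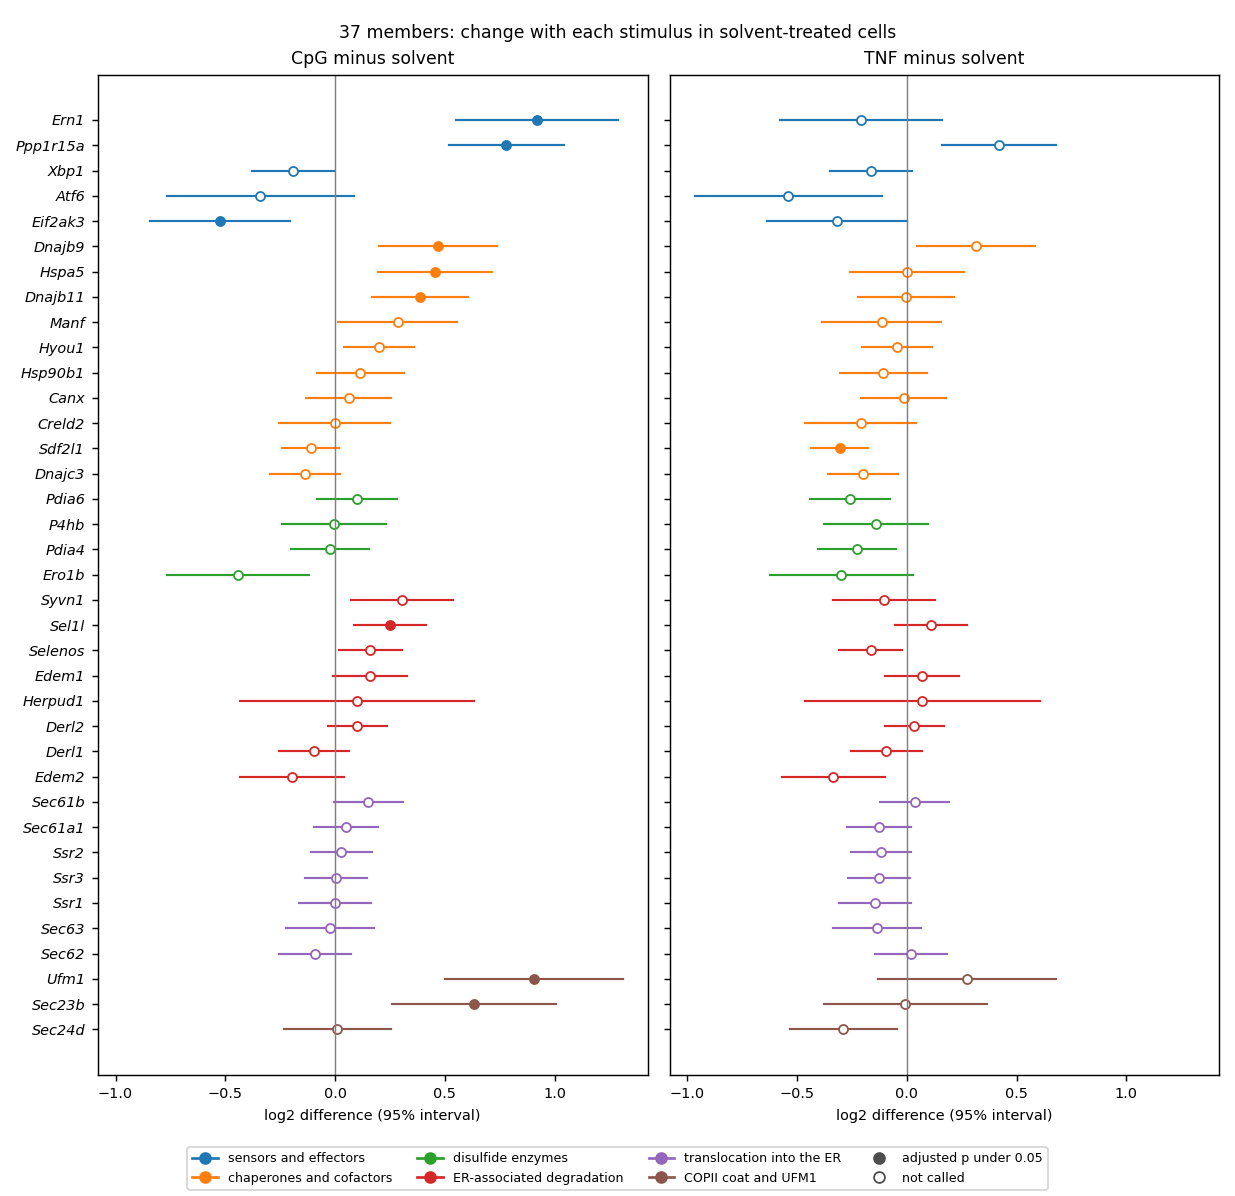
Log2 difference with its 95% interval (x axis) for each of the 37 members, grouped by role (colours, y axis), for CpG minus solvent on the left and TNF minus solvent on the right. Filled circles passed an adjusted p of 0.05: 9 members with CpG and 1 with TNF.

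The motifs were set against the CpG differences. Of the 8 members that rose with CpG, Hspa5 has an ERSE and Dnajb11 an ERSE-II, and Ern1, Ufm1, Ppp1r15a, Sec23b, Dnajb9 and Sel1l have no exact match in their windows. The other 7 members with an ERSE were not called, and the 8 members with an ERSE had a median CpG difference of 0.081 log2, against 0.052 log2 for the 20 members with a window and no match of any of the 3 motifs. With TNF the medians were -0.15 and -0.13 log2. The windows of Hspa5, with its motif in capitals, and of Ern1 and Ufm1, the largest rises, are shown for comparison.

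Hspa5, chr2:34771840-34772139, plus strand: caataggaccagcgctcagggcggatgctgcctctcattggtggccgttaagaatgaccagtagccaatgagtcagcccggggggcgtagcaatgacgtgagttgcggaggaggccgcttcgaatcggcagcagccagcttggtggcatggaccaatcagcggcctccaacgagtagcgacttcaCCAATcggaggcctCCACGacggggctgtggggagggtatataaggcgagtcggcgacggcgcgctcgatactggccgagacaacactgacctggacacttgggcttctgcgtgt
Ern1, chr11:106487747-106488046, minus strand: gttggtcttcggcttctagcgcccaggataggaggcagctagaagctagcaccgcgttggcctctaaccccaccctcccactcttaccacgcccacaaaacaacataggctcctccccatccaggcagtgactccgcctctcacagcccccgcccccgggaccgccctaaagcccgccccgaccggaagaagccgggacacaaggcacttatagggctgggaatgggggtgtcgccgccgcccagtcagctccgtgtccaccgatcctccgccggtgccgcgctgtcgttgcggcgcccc
Ufm1, chr3:53863758-53864057, minus strand: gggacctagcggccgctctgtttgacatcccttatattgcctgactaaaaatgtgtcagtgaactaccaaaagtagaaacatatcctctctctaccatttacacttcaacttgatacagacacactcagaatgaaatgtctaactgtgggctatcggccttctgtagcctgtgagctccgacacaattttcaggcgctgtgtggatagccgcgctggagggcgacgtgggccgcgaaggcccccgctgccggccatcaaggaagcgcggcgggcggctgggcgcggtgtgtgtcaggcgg

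**Figure D3:**
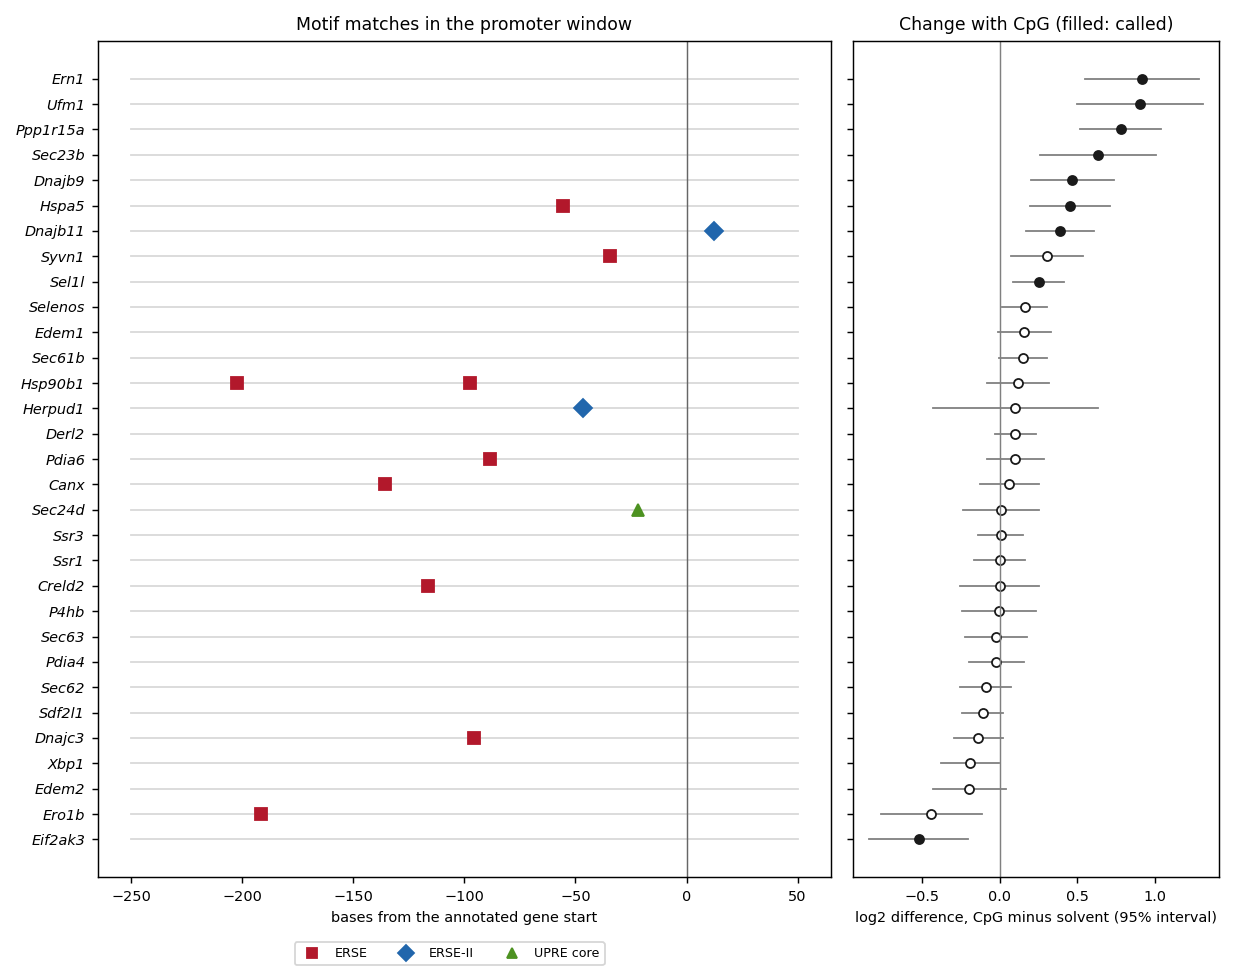
Left, position of each motif match relative to the annotated start (x axis, bases) in the windows of 31 members (y axis, ordered by their change with CpG); right, CpG minus solvent difference with its 95% interval, filled where adjusted p was under 0.05. The 8 members with an ERSE run from -0.44 log2 (Ero1b) to 0.45 log2 (Hspa5).

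The CpG calls depended on single arrays. Without the solvent array of experiment 1 or without the CpG array of experiment 1, Ppp1r15a was the 1 member still called. Without the solvent array of experiment 2 there were 4 called members (Dnajb9, Ern1, Ppp1r15a and Ufm1), and without the CpG array of experiment 2 there were 12, Atf6, Ero1b, Manf and Xbp1 among them and Sel1l not. Estimated array weights left 3 (Ern1, Ppp1r15a and Ufm1), and centring each array on its median gave 14 (13 higher and 1 lower).

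Other probe sets allowed a check of direction. Among the members 24 had at least 1 further probe set bright enough to test, 53 in all, of which 39 had the same sign of the CpG difference as the probe set used. For Ern1 the 2 further probe sets gave 0.46 and 0.29 log2, against 0.92 for the one used. For Ufm1 the 4 further ones ran from 0.23 to 0.81 log2, against 0.90, and for Sel1l the 4 further ones ran from 0.046 to 0.41 log2, against 0.25. For Hspa5 they gave 0.46 and 0.11 log2, against 0.45, and for Eif2ak3 a dim one gave -0.0048 log2, against -0.52. Ppp1r15a, Dnajb9, Dnajb11 and Sec23b have 1 probe set each.

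Cell type markers also differed on the same arrays. The mean of the 8 macrophage markers was 11.40 and 11.80 log2 with CpG, against 11.72 and 12.15 in solvent cells, and that of the 10 conventional dendritic cell markers 11.08 to 11.29 with CpG, against 11.39 to 11.59. The 4 plasmacytoid dendritic cell markers, which include the interferon-inducible Bst2, had 9.89 to 10.24 with CpG, against 9.60 to 9.89. The plasma cell and B lymphocyte markers had 7.82 to 8.26 with CpG, against 7.67 to 8.30, which overlapped. The mast cell and basophil list had 9.47 to 9.48 with CpG, against 9.28 to 9.42, and the granulocyte list 12.44 to 12.45, against 12.37 to 12.39. The part of these shifts in the members' changes was not tested.

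Other genes of the same machinery were measured beside the members. Of 79 further genes of folding, glycosylation, translocation, degradation and transport, 3 rose with CpG and 6 fell, beside 6.18% and 13.7% of all genes, and 1 was called without the block. Their median was -0.078 log2, against -0.055 over all genes, and 28 of 79 lay above 0. The isomerase gene Pdia5 was among the risers, at 0.47 ± 0.077 log2 (limma adjusted p = 0.00618; 0.154 without block). Vcp encodes p97, the ATPase that pulls degradation substrates out of the membrane, and rose by 0.35 ± 0.061 log2 (limma adjusted p = 0.00774, which was 0.0388 without the block). Nploc4, a cofactor of p97, rose by 0.25 ± 0.067 log2 (limma adjusted p = 0.0337, which was 0.334 without the block). Uggt1, which returns misfolded glycoproteins to the calnexin cycle, fell by 0.56 log2 (SE 0.11, limma adjusted p = 0.0100 with the block and 0.129 without the block). Mogs, the glucosidase that starts trimming of N-glycans, fell by 0.48 log2 (SE 0.13, limma adjusted p = 0.0309 with the block and 0.283 without the block). Ddrgk1, an adaptor of the UFM1 ligase, fell by 0.43 log2 (SE 0.13, limma adjusted p = 0.0439 with the block and 0.129 without the block), while Ufm1 itself rose. The call on Ddrgk1 was also lost with the mean of its probe sets, without the brightness filter, with array centring and with array weights. Array weights also removed the calls on Nploc4 and Mogs.

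TNF changed 1 member. Sdf2l1, a cofactor of the BiP chaperone cycle, was at 11.74 and 11.91 log2 with TNF, against 12.11 and 12.15 in solvent cells. Both TNF arrays were below both solvent arrays, with a difference of -0.31 ± 0.058 log2 (limma adjusted p = 0.0296, and 0.378 without the block). The call was lost without each of the 4 arrays compared in turn, and with centring of each array on its median. The 1 member called (0 higher, 1 lower) stands beside 3.11% of all tested genes, 1.14% higher and 1.97% lower. The members' median difference was -0.12 log2, against -0.051 over all genes, and 10 of 37 members lay above 0, against 37.5% of all genes. Cell type markers differed on these arrays too, with macrophage means of 11.42 to 11.58 log2 with TNF against 11.72 to 12.15 in solvent cells. The conventional dendritic cell list had 11.20 to 11.33 with TNF, against 11.39 to 11.59, and the mast cell and basophil list 9.51 to 9.53, against 9.28 to 9.42. Their part in the members' differences was not tested. Estimated array weights gave 9 called members, Atf6, Eif2ak3 and Ppp1r15a among them.

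The genes that CpG raised had smaller differences with TNF, none of them called. Ern1 was at 9.67 and 10.48 log2 with TNF, against 10.04 and 10.52 in solvent cells (-0.21 ± 0.16 log2, limma adjusted p = 0.492). Hspa5 was at 13.80 and 13.82 log2, against 13.75 and 13.86 (0.0027 ± 0.11 log2, 95% interval -0.26 to 0.26). Eif2ak3 differed from solvent by -0.32 ± 0.14 log2 (limma adjusted p = 0.245) and Xbp1 by -0.16 ± 0.082 log2 (0.297). Further probe sets for Xbp1 gave -0.36, -0.32 and 0.044 log2 with TNF, and a dim one for Eif2ak3 gave 0.075 log2. Ppp1r15a was at 10.26 and 10.46 log2 with TNF, against 9.83 and 10.06 in solvent cells, and its difference of 0.42 ± 0.12 log2 did not pass (limma adjusted p = 0.0855). Dnajb9 stood 0.32 log2 above solvent with TNF, 0.45 and 0.18 in the 2 experiments, and its CpG value exceeded its TNF value by 0.15 log2. With estimated array weights Dnajb9 was among the called members. Atf6 had the lowest difference, -0.54 ± 0.19 log2, at 8.997 and 9.516 with TNF against 9.809 and 9.787 in solvent cells (limma adjusted p = 0.152). The other 2 probe sets for Atf6 gave -0.27 and -0.078 log2 with TNF. All 4 disulfide enzyme genes lay below solvent, from -0.30 log2 for Ero1b to -0.14 for P4hb, with 0 called. Of the 79 further genes 0 were called in limma (25 at an unadjusted p under 0.05, beside 20.5% of all genes), and 65 lay below 0, at a median of -0.13 log2.

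Set directly against TNF, CpG left 32 of 37 members higher, at a median of 0.15 log2 against -0.025 over all genes, of which 42.6% lay above 0. Ern1 alone passed, at 11.08 and 11.32 log2 with CpG against 9.67 and 10.48 with TNF (1.13 ± 0.16 log2 or 2.19-fold, limma adjusted p = 0.0350, and 0.610 without the block). The 2 further Ern1 probe sets bright enough to test gave smaller differences, 0.39 and 0.33 log2. One called member stands beside 0.435% of all genes, 0.344% higher and 0.0902% lower. At an unadjusted p under 0.05 there were 17 members, all higher with CpG, beside 15.7% of all genes, 8.60% higher and 7.11% lower. Among them were Ufm1 and Sec23b at 0.63 ± 0.18 and 0.64 ± 0.16 log2, Hspa5 at 0.45 ± 0.11, Syvn1 at 0.41 ± 0.10 and Pdia6 at 0.36 ± 0.081, with limma adjusted p from 0.111 to 0.170. Selenos, a selenoprotein of the degradation complex, had 0.33 ± 0.063 log2 (limma adjusted p = 0.0779). The Ern1 call was lost without the CpG array of experiment 1 and without either TNF array, and without the CpG array of experiment 2 there were 8 called members.

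**Figure D4:**
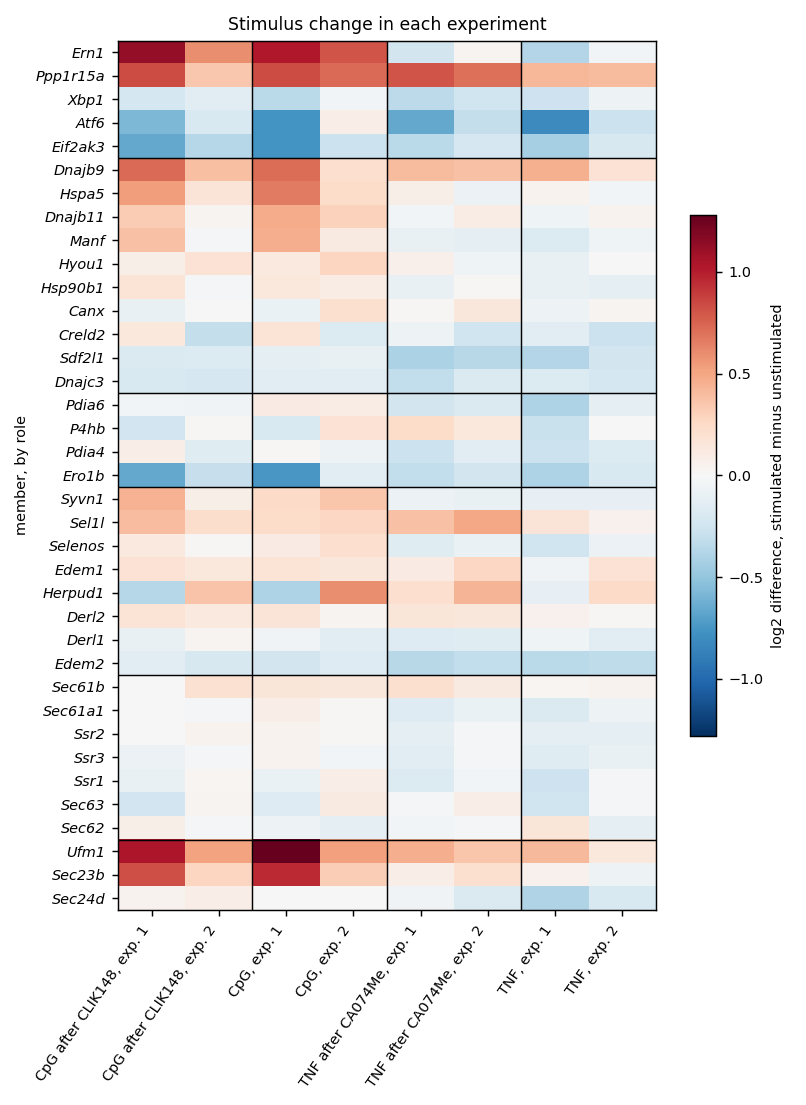
Colour gives the log2 difference between stimulated and unstimulated cells within each experiment (columns) for each member (rows, by role). Ern1, Ufm1, Ppp1r15a, Dnajb9 and Sec23b are above 0 in all 4 CpG columns, and Herpud1 is at -0.39 and 0.59 log2 in the CpG columns of solvent cells.

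After CLIK148 the response to CpG covered part of the same set. Cells given CLIK148 and CpG were compared with cells given CLIK148 alone, which shares no array with the comparison in solvent. There 5 members rose and 1 fell, beside 4.03% and 13.0% of all genes, or 17.0% in either direction, and without the block 0 members were called (0.812% of all genes). Ern1 stood at 10.98 and 11.04 log2 with CLIK148 and CpG, against 9.85 and 10.45 with CLIK148 alone (0.86 ± 0.16 log2, limma adjusted p = 0.0126, and 0.266 without the block). Ufm1 was at 12.04 and 11.50 log2, against 11.01 and 10.98 with CLIK148 alone (0.78 ± 0.18 log2, adjusted p = 0.0230 in limma). Ppp1r15a was at 10.53 and 10.37, against 9.70 and 10.02 (0.59 ± 0.12 log2, limma adjusted p = 0.0136).

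Dnajb9 rose by 0.55 ± 0.12 log2 and Sel1l by 0.31 ± 0.072 log2 after CLIK148 (limma adjusted p = 0.0181 and 0.0230). Eif2ak3 fell by 0.51 log2 (SE 0.14, limma adjusted p = 0.0398), and this call was lost with the mean of its probe sets and with centring of each array on its median. Without the block limma adjusted p lay from 0.0960 to 0.502 for these 6 genes. Without the CLIK148 array of experiment 1, or without the array with CLIK148 and CpG of experiment 1, 0 members were called, and without the CLIK148 array of experiment 2 there were 2 (Dnajb9 and Sel1l). Centring each array on its median gave 12 called members, 12 higher and 0 lower.

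The test of the CpG response after CLIK148 against that in solvent found no member that differed. The differences between the responses ran from -0.21 log2 for Dnajb11 (95% interval -0.52 to 0.10) to 0.12 log2 for Sec62 (-0.11 to 0.35), with a median of -0.056 and 0 of 37 called. Over all tested genes 0 were called by limma (61 at an unadjusted p under 0.05, or 0.500%), and for the members the 95% interval reached a median of 0.282 log2 to either side.

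Given alone, neither inhibitor changed a member. With CLIK148 the members' differences from solvent ran from -0.13 log2 for Ern1 (95% interval -0.50 to 0.23) to 0.075 log2 for Dnajb11 (-0.14 to 0.29), with a median of -0.0081. Ern1 was at 9.85 and 10.45 log2 with CLIK148 against 10.04 and 10.52 in solvent cells, which overlap. With CA074Me they ran from -0.23 log2 for P4hb (95% interval -0.46 to 0.0100) to 0.11 log2 for Pdia4 (-0.065 to 0.29), with a median of -0.012. P4hb, which encodes protein disulfide isomerase, was at 13.66 and 13.81 log2 with CA074Me, against 14.00 and 13.92 in solvent cells, so both CA074Me arrays were lower. No tested gene was called in either comparison by limma (45 and 336 of 12192 at an unadjusted p under 0.05, or 0.369% and 2.76%, and 0 members in each). A count of 0 with 2 arrays per group does not show that the inhibitors left the members alone.

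CLIK148 and CA074Me were used at the same 5 µM and for the same 1 h, and this 1 pair of compounds was compared directly. CLIK148 minus CA074Me ran from -0.19 log2 for Sec24d (95% interval -0.43 to 0.058) to 0.23 log2 for P4hb (-0.010 to 0.46), with 0 of 37 members and 0 of all genes called by limma (288 genes at an unadjusted p under 0.05, or 2.36%). P4hb was 0.23 log2 higher with CLIK148 in each of the 2 experiments.

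Under CpG, cells with CLIK148 had values slightly below cells with solvent for most members, with 31 of 37 below 0 at a median of -0.055 log2, against -0.029 over all genes. Of all 12192 tested genes 7942 also lay below 0. Among the members 22 were lower in both experiments and 14 had opposite signs. None was called, and limma called 0 of all genes (226 at an unadjusted p under 0.05, or 1.85%). Ppp1r15a had the lowest difference, -0.27 ± 0.12 log2 (95% interval -0.53 to -0.0099), and Sec62 the highest, 0.064 ± 0.072. Ppp1r15a was the 1 member with an unadjusted p under 0.05.

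After CA074Me, TNF raised Ppp1r15a and Sel1l and lowered Sdf2l1 relative to CA074Me alone. Ppp1r15a was at 10.56 and 10.84 log2 with CA074Me and TNF, against 9.75 and 10.14 with CA074Me alone (0.76 ± 0.12 log2 or 1.69-fold, limma adjusted p = 0.00533, and 0.0817 without the block). Sel1l was at 11.87 and 11.89 log2, against 11.50 and 11.39 with CA074Me alone (0.43 ± 0.072 log2, limma adjusted p = 0.00723, and 0.0351 without the block). Sdf2l1 was at 11.81 and 11.90 log2, against 12.21 and 12.25 with CA074Me alone (-0.38 ± 0.058 log2, limma adjusted p = 0.00533, and 0.0810 without the block). The groups did not overlap for any of the 3 genes.

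These 3 called members, 2 higher and 1 lower, stand beside 4.96% of all genes higher and 6.14% lower (11.1% in either direction, and 1.30% without the block). Without the array with CA074Me and TNF of experiment 2 there were 0 called members, and without the CA074Me array of experiment 1 Sel1l alone. Cyclic loess gave 2 higher and 3 lower, and centring on array medians 2 higher and 2 lower. Macrophage marker means were 11.25 to 11.52 log2 with CA074Me and TNF, against 11.63 to 12.08 with CA074Me alone. Those of the conventional dendritic cell list were 11.30 to 11.31, against 11.41 to 11.53. The part of these shifts in the members' differences was not tested.

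The TNF response after CA074Me was then tested against the TNF response in solvent. None of the 37 members was called, and limma called 0 of all genes (303 at an unadjusted p under 0.05, or 2.49%). The largest difference was that of Ppp1r15a, 0.34 ± 0.16 log2 (95% interval -0.030 to 0.71), and the lowest that of Xbp1, -0.13 log2 (-0.40 to 0.13). Sel1l was the 1 member with an unadjusted p under 0.05, at 0.32 ± 0.10 log2. Under TNF, cells with CA074Me differed from cells with solvent by -0.078 log2 for Eif2ak3 to 0.34 ± 0.12 log2 for Ppp1r15a (95% interval 0.083 to 0.60), with 0 members called and 3 at an unadjusted p under 0.05 (Ppp1r15a, Sel1l and Sec24d), beside 3.03% of all genes. Of all tested genes 1 was called there by limma (0.00820%), and it is not a member.

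**Figure D5:**
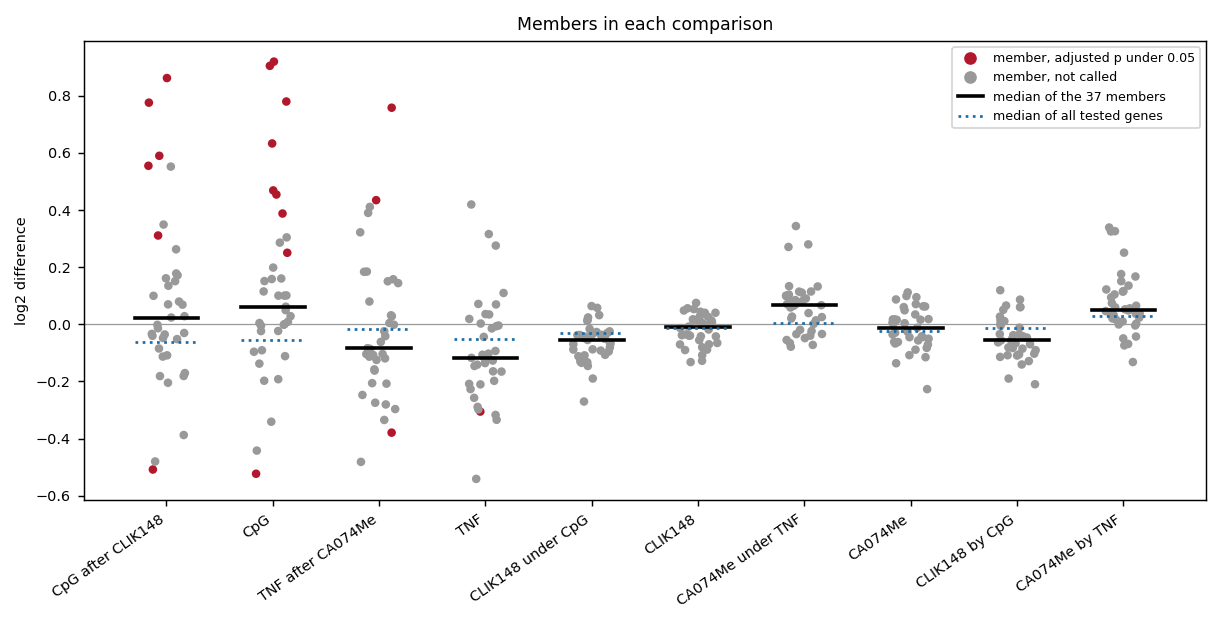
Log2 difference (y axis) of each of the 37 members (points) in 10 comparisons (x axis); red points passed an adjusted p of 0.05, black lines are the members' medians and dotted lines the medians of all 12192 tested genes. The 4 comparisons of stimulated with unstimulated cells spread from -0.54 to 0.92 log2, and the other 6 plotted from -0.27 to 0.34 log2.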

How the data were processed

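Expression was measured on 14 Affymetrix mouse arrays, 2 for each of 7 groups. The deposited values are on a log2 scale and were made with RMA by the authors, who used R 3.0.1 per the submitters' processing notes; other settings were not stated. Of 45101 probe sets the platform annotation assigns 34945 to a single gene. Members and gene lists were chosen with earlier results of these data known. A gene's probe set with the highest mean over 14 arrays was used, and genes above the overall median (7.52 log2, control probe sets left out) on at least 2 arrays were tested. Of the members' probe sets, 7 have names ending in _s_at and that of Ssr3 in _x_at, types that can share probes with other transcripts.

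All 7 groups were fitted in 1 model with limma 3.58.1 in R 4.3.3, with a block for the experiment (leaving 6 residual degrees of freedom), because the design text describes 2 independent experiments and the replicate numbers pair the arrays (values in the report). Tests are 2-sided with Benjamini-Hochberg adjustment over 12192 genes in each of 12 comparisons, and intervals are 95%. The script was tested on simulated data. Alternatives were the fit without the block, the compared groups only, the mean of probe sets, no brightness filter, array centring, cyclic loess, array weights, a trended prior and leaving out each compared array.

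Genes named with full statistics are, by rule, the 5 largest called rises and falls of a comparison, 5 stress genes, the extremes where nothing was called, and the 3 largest called changes of other pathway genes. Other members named were chosen after their values were seen. They are Dnajb11 and Sel1l with CpG, Ppp1r15a and Dnajb9 with TNF, and those that complete a role group. Members named for an unadjusted p under 0.05 are also among them, as in CpG against TNF and in the comparisons with CA074Me and TNF. Separate cultures are taken from the words on independent experiments. The number of arrays limits the precision.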

Additional observations from a re-analysis of the deposited data

How the results depend on the processing

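With 2 arrays per group, most calls on members depended on the model. No replicate block left 0 called members with CpG, TNF, CpG after CLIK148 and CpG against TNF, and 1 with TNF after CA074Me (Sel1l). With only the compared groups in the fit the first 4 comparisons again gave 0 and TNF after CA074Me gave 12. Array weights gave 3 with CpG, 9 with TNF, 9 with TNF after CA074Me and 0 with CpG against TNF. Centring arrays on their median gave 14 with CpG, 12 with CpG after CLIK148 and 0 with TNF. For TNF after CA074Me cyclic loess gave 5 and averaging each gene's probe sets 6. Leaving out 1 array gave 1 to 12 called members with CpG, 0 with TNF in each of the 4 fits, 0 to 6 with CpG after CLIK148, 0 to 4 with TNF after CA074Me and 0 to 8 with CpG against TNF. The other 7 comparisons had 0 called members under every alternative run. For the genes named by rule, directions held in the alternatives run except for 4 values of genes that were not called. Hspa5 with TNF ranged from -0.073 (without the solvent array of experiment 1) to 0.078 log2 over the fits without 1 array, and was at -0.026 without the TNF array of experiment 2, Sec62 with CLIK148 under CpG at -0.024 with the mean of its probe sets, and Eif2ak3 with CA074Me under TNF from -0.16 to 0.0068 over the fits without 1 array, the last without the array with CA074Me and TNF of experiment 2. The cause of these shifts was not tested.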

Other observations

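The 2 experiments differed in the members' level. In all 7 groups the array of experiment 2 was the higher one for 16 of the 37 members (43.2%), and the lower one for Derl2 alone (2.70%). Over all tested genes 27.2% were higher in all 7 groups and 9.97% lower. The median gap, experiment 2 minus experiment 1, was 0.14 log2 for the members and 0.051 for all genes. Among the 16 were the sensor genes Ern1 (0.49 log2 on average) and Eif2ak3 (0.54), the coat gene Sec24d (0.53), the mannosidase-like gene Edem2 (0.39) and the isomerase gene Pdia4 (0.35), all named after their values were seen. With 1 set of cultures in each experiment, this gap has no test.

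Of the 79 further genes of the machinery, 1 rose and 8 fell with CpG after CLIK148, and 3 rose and 3 fell with TNF after CA074Me, at medians of -0.11 and -0.084 log2 (all-gene shares called were 17.0% and 11.1%).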
